A study of Mus musculus with 52 samples.

Results

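The genes described here are the transcription factor genes Irf8, Batf3, Id2 and Nfil3, which are known for setting up the lineage of type 1 conventional dendritic cells (cDC1). They were chosen by name, as the 4 lines of the mouse count table with these symbols, out of 23135 gene lines. All 4 passed the filter on low counts in each fit. The study measured gene expression in bulk, by sequencing the 3' ends of poly(A) RNA with unique molecular identifiers, in cDC1 grown from C57BL/6 mouse bone marrow and exposed to the lipid prostaglandin E2 (PGE2), to the double-stranded RNA mimic poly I:C, or to melanoma-conditioned medium (CM). Marrow cells were grown with GM-CSF at 300 pg/ml and FLT3L at 55 ng/ml for 14 days, CD103+ cells were sorted, and 200000 cells per well were treated. There were 13 groups of 4 libraries, lettered A to D, which the labels call biological replicates without saying whether they came from separate animals or cultures. The p-values therefore stand for the variation among these libraries, and this variation may be technical.

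The first 9 groups were harvested after 4 h: untreated cells, cells given PGE2 at 100 ng/ml, cells in medium conditioned by BRAFV600E melanoma cells (control CM), cells in medium conditioned by Ptgs1/Ptgs2-/- BRAFV600E melanoma cells, which lack the cyclooxygenases that PGE2 synthesis needs (cyclooxygenase-deficient CM, Ptgs-deficient in the plots), and 5 groups given PGE2 after 30 min with antagonists of PGE2 receptors at 5 uM each. The antagonists were SC-19220 for EP1, PF-04418948 for EP2, L-826,266 for EP3 and L161,982 for EP4. The title of the group with both EP2 and EP4 antagonists goes against its treatment label, which lists SC-19220, the compound of the EP1 group, together with L161,982. The group is called here by its title, and which compound was used cannot be told from the labels. The remaining 4 groups were harvested after 24 h: untreated cells, cells given PGE2, cells given poly I:C at 10 ug/ml for the last 4 h, and cells given PGE2 with poly I:C for the last 4 h. The amount of conditioned medium is not given in the sources used here.

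Irf8 is the interferon regulatory factor that specifies cDC1 and keeps them in their identity. Batf3 is a basic leucine zipper factor of the AP-1 family that pairs with Jun proteins and binds with IRF8, also at an enhancer of Irf8 itself, so that the pair sustains Irf8 expression in mature cDC1. Id2 binds E proteins and keeps them off DNA, and Nfil3, another basic leucine zipper factor and mostly a repressor, acts early in the progenitors, where it holds back Zeb2. PGE2 is a lipid mediator made by cyclooxygenases that signals through the receptors EP1 to EP4, of which EP2 and EP4 raise cyclic AMP.

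In the GRCm38 annotation Irf8 lies at chr8:120736358-120756694 on the plus strand with 9 exons in its first transcript, and Batf3 at chr1:191097847-191108945 on the plus strand with 3 exons. Id2 lies at chr12:25093799-25097140 and Nfil3 at chr13:52967209-52981073, both on the minus strand, with 3 and 2 exons. Irf8 shares its strand with an overlapping protein-coding gene model, Gm20388, which has no line of its own in the count table. The stretches before the RefSeq start sites of Irf8, Batf3 and Nfil3 are shown because these are the members called with PGE2 at 4 h, Irf8 and Batf3 down and Nfil3 up. They come from RefSeq on GRCm38.p6 and run 5' to 3' on the gene's strand, from chr8:120736108-120736357 (plus) for Irf8, chr1:191098164-191098324 (plus) for Batf3 and chr13:52981074-52981289 (minus) for Nfil3, each ending at the start site or where annotated untranslated sequence begins. The Batf3 stretch is placed by its RefSeq start and lies inside the Batf3 span given above, downstream of the annotated gene start. There, 4 annotated exons overlap the 250 bases before the RefSeq start. The Id2 window that was searched also lies inside its annotated gene. Capitals mark the STAT-type element TTCNNNGAA in Irf8 and Batf3, and the reverse complement of the short cyclic AMP element TGACG in Nfil3.

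Irf8: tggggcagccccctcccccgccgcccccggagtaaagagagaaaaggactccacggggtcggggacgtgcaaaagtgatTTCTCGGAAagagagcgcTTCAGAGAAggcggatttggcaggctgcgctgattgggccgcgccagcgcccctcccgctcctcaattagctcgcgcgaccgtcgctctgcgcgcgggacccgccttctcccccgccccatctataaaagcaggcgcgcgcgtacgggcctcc

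Batf3: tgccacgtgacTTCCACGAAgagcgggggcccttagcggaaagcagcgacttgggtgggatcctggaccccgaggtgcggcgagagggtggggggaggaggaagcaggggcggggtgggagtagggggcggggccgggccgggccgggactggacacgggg

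Nfil3: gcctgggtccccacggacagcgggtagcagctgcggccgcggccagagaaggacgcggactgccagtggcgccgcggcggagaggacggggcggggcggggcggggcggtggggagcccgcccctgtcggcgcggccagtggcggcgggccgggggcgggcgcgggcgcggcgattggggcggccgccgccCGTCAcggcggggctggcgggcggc

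The element TTCNNNGAA stood at -171 and -153 bases from the Irf8 start. It also stood at -239 bases from the RefSeq start of Batf3, inside the annotated gene. Of 32851 promoters of 300 bases, 8.30% hold it on either strand. The short element TGACG stood at -59 bases from the Nfil3 start, on the strand opposite to the gene, and 20.8% of the promoters hold it. Neither the full cyclic AMP element TGACGTCA, which is in 1.79% of the promoters, nor the AP-1 element TGANTCA, in 7.81%, was present in the windows of the 4 genes. The NFIL3 core TTACGTAA or TTATGTAA (1.06%) and the PU.1 core GAGGAAGT (3.20%) were also absent from these windows, as were pairs of GAAA spaced by 2 bases as in interferon-responsive elements (3.44%). A second listed Irf8 promoter held the E-box CACCTG at -205 bases from its start, a motif in 20.2% of promoters, and the Id2 window held none of the motifs searched. These matches describe letters in a window and are not measured sites.

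Library totals ran from 42666 to 438491 counts with a median of 295484.5, and 2 libraries, replicate A of the untreated cells at 4 h and replicate A with the EP4 antagonist, had under 100000. The labelled cell type was checked against marker genes. Summed over 7 cDC1 markers other than Irf8 and Batf3, the level was 2283 to 2652 CPM (scaled UMI counts) per library in untreated cells at 4 h, and none of the 7 was at 0. With PGE2 at 4 h the same sum was 1128 to 1531 CPM, and at 24 h it was 2660 to 3008 CPM untreated, 1332 to 1568 CPM with PGE2, 773 to 808 CPM with poly I:C and 392 to 540 CPM with both. Markers of macrophages and monocytes, mostly Lyz2 and Csf1r, summed to 904 to 1478 CPM untreated and 949 to 1187 CPM with PGE2 at 4 h, and at 24 h to 1234 to 1693 CPM untreated, 1820 to 2172 CPM with PGE2 and 447 to 710 CPM in the 8 libraries with poly I:C. Sums for granulocytes and mast cells stayed at or under 14.6 CPM and those for melanoma cells at or under 8.28 CPM in every library. In bulk samples, fewer cells of a type and less RNA per cell cannot be told apart. Replicate B of the cyclooxygenase-deficient CM and replicate B with the EP3 antagonist held the highest or lowest values of their groups in several member genes. Neither is among the single libraries flagged in the closing section. Values without them are given beside the results they touch.

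Markers of the other dendritic cells were low but moved with the treatments. The sum of 8 markers of type 2 dendritic cells (cDC2) was 26.9 to 79.3 CPM untreated and 67.7 to 145 CPM with PGE2 at 4 h. At 24 h it was 75.6 to 121 CPM untreated, 194 to 252 CPM with PGE2, 4.66 to 14.6 CPM with poly I:C and 31.3 to 45.2 CPM with both, ranges that did not overlap. Much of it was Cd209a, while Mgl2, another of the 8, was at 0 in every PGE2 library. A count of 0 allows up to 10.2 CPM at the median depth, and the other markers of this list are not described here. The sum of 8 plasmacytoid dendritic cell markers was 58.0 to 111 CPM untreated and 21.0 to 52.1 CPM with PGE2 at 4 h, without overlap. At 24 h it was 35.3 to 51.5 CPM untreated, 20.3 to 43.5 CPM with PGE2, 63.5 to 131 CPM with poly I:C, mostly from Tcf4, and 41.1 to 148 CPM with both. Lymphocyte markers, of which 6 were in the table, were all at 0 in the untreated libraries of both times. They summed to 4.91 to 75.2 CPM with PGE2 at 4 h and 2.90 to 20.3 CPM at 24 h, nearly all from Il7r. The part of these changes in the members' results was not tested.

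All levels are CPM, the UMI counts of a gene scaled to library size after 1 trimmed-mean (TMM) normalization over the 52 libraries. Group means of Irf8 ran from 4707 ± 777 CPM (SD, n = 4) in cyclooxygenase-deficient CM and 4525 ± 184 CPM in untreated cells at 4 h down to 2339 ± 113 CPM with PGE2 and the EP1 antagonist, a range of 2.01-fold. Below the untreated cells at 4 h came PGE2 with poly I:C, untreated cells at 24 h, EP2 plus EP4 antagonists, control CM, poly I:C, the EP2 antagonist, the EP3 antagonist, PGE2 alone at 4 h, the EP4 antagonist and PGE2 at 24 h. Of the 12 steps between neighbours in this order, 3 were larger than the larger SD of the pair: from untreated at 4 h to PGE2 with poly I:C, from EP2 plus EP4 antagonists to control CM, and from PGE2 at 24 h to the EP1 antagonist. Neighbours at the other steps did not differ beyond their spread, and the places of the 2 groups with poly I:C depend on the scaling, which is given beside their tests.

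Batf3 was highest in untreated cells at 4 h, at 242 ± 7.84 CPM (SD, n = 4), and lowest with PGE2 at 4 h, at 54.1 ± 19.1 CPM, a 4.48-fold range. Between them came untreated at 24 h, cyclooxygenase-deficient CM, EP2 plus EP4 antagonists, PGE2 with poly I:C, poly I:C, PGE2 at 24 h, the EP2 antagonist, the EP3 antagonist, control CM, the EP4 antagonist and the EP1 antagonist. Here 2 of 12 steps exceeded the larger SD, from untreated at 4 h to untreated at 24 h and from PGE2 with poly I:C to poly I:C alone. The ranges overlapped at both steps. At the second step the SDs were 7.55% and 6.70% of the means, where counting alone gives 18.7% and 20.7%. The test of that pair gave no call (adjusted p = 0.782 in edgeR). Nfil3 ran in nearly the opposite order, from 101 ± 15.3 CPM with PGE2 at 4 h down to 14.5 ± 13.1 CPM in untreated cells at 4 h, a 6.99-fold range. The groups between them were, from high to low, the EP1 antagonist, control CM, the EP3 antagonist, the EP4 antagonist, PGE2 with poly I:C, the EP2 antagonist, PGE2 at 24 h, cyclooxygenase-deficient CM, poly I:C, EP2 plus EP4 antagonists and untreated at 24 h. The step from PGE2 with poly I:C to the EP2 antagonist alone exceeded the larger SD, with ranges that overlapped.

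Id2 followed culture time and poly I:C. It was highest in cyclooxygenase-deficient CM at 3004 ± 249 CPM (SD, n = 4), followed by untreated cells at 4 h, EP2 plus EP4 antagonists, control CM, the EP2, EP1, EP3 and EP4 antagonists, and PGE2 alone at 2365 ± 44.8 CPM. The 4 groups at 24 h lay below all 9 groups at 4 h, in the order untreated, PGE2, poly I:C and PGE2 with poly I:C, the last at 902 ± 168 CPM, for a 3.33-fold range overall. The steps from PGE2 at 4 h to untreated at 24 h, to PGE2 at 24 h and to poly I:C exceeded the spread, and the other 9 of 12 did not.

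**Figure D1:**
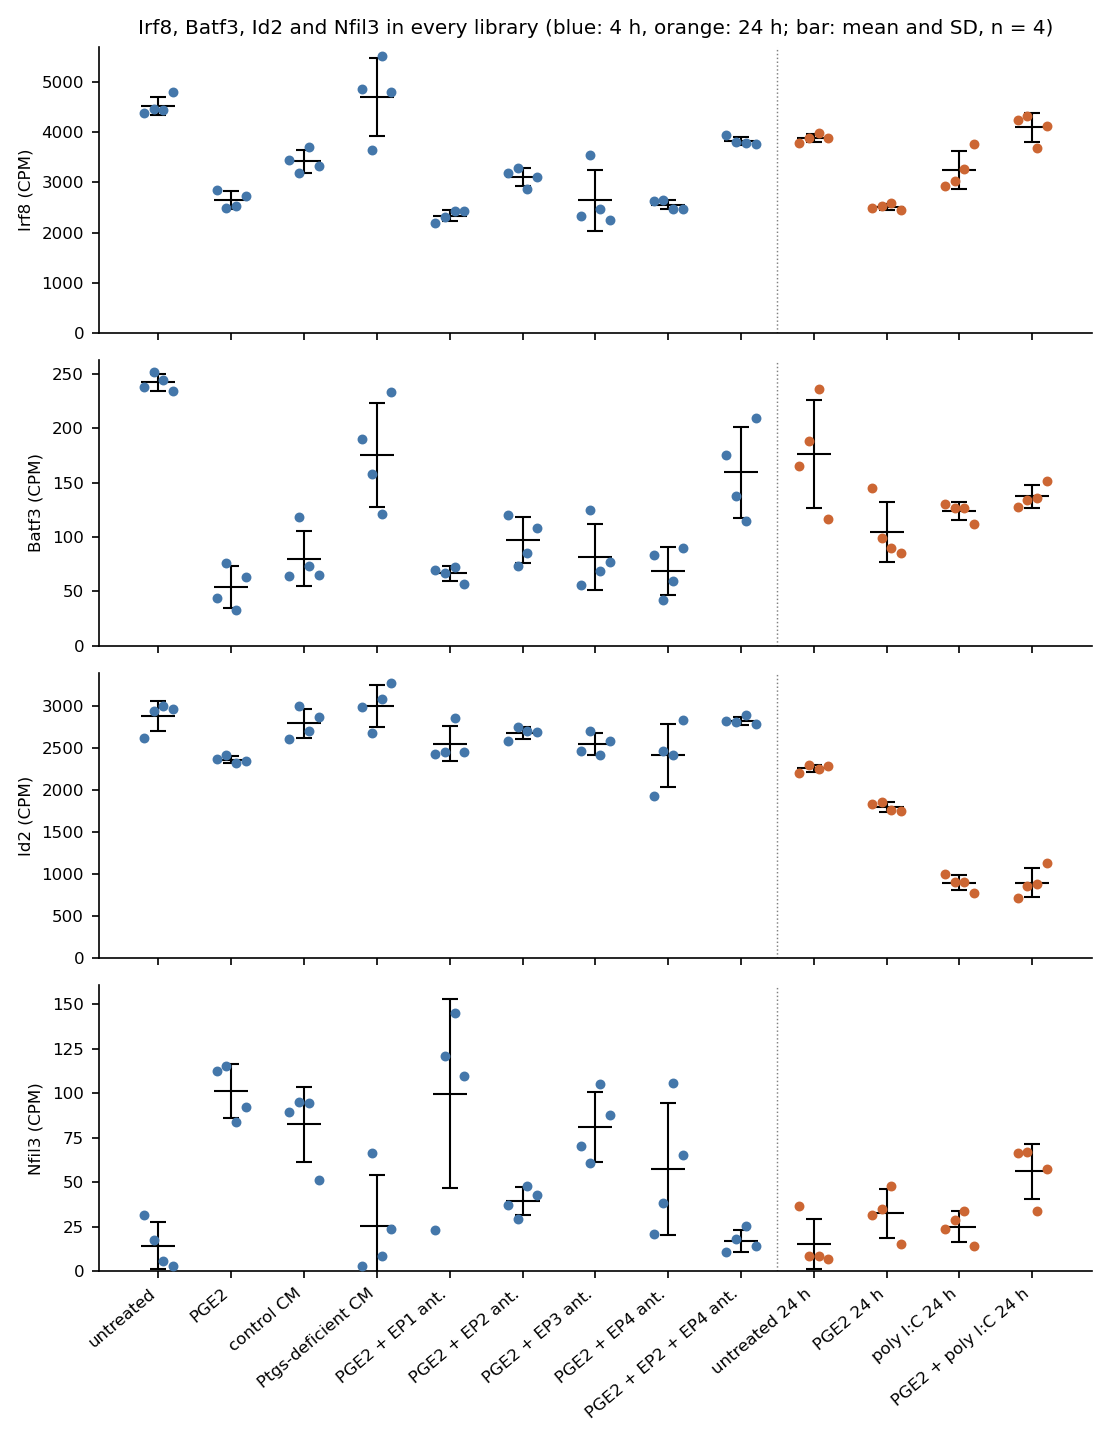
Level of Irf8, Batf3, Id2 and Nfil3 in each of the 52 libraries, in CPM after TMM scaling, by group, with points for libraries and bars for the mean and SD of 4. Irf8 and Batf3 sit low and Nfil3 sits high with PGE2 or control CM at 4 h, Nfil3 sits lower again with PGE2 and both antagonists, and Id2 is lowest in the 2 groups given poly I:C.

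PGE2 for 4 h lowered Irf8 and Batf3 and raised Nfil3, compared with untreated cells. The Irf8 level was 4392, 4463, 4448 and 4796 CPM in the untreated libraries A to D and 2850, 2482, 2526 and 2725 CPM with PGE2. All 4 PGE2 libraries lay below all untreated ones. How many of all genes separate without overlap was not counted, for this comparison or those below. The fold change was -0.78 ± 0.11 on the log2 scale (SE, 95% interval -0.995 to -0.568, 1.72-fold lower), with an adjusted p of 1.84e-09 in edgeR's quasi-likelihood test. Batf3 was at 238, 252, 245 and 235 CPM untreated and at 44.2, 75.7, 33.1 and 63.6 CPM with PGE2, again without overlap. Its log2 fold change was -2.21 ± 0.25 (-2.70 to -1.71, 4.61-fold lower, adjusted p = 7.17e-13), the gene with the 13th smallest p of 5754 tested.

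Nfil3 rose from 31.7, 17.5, 5.97 and 2.76 CPM untreated, which rested on only 10 counts in the 4 libraries, to 113, 116, 84.2 and 92.6 CPM, from 96 counts. No library overlapped, and the log2 fold change was 3.31 ± 0.51 (2.28 to 4.34, adjusted p = 1.21e-06). Id2 was at 2616, 2943, 3006 and 2967 CPM untreated and at 2374, 2422, 2318 and 2343 CPM with PGE2. Its ranges also did not overlap, but the change of -0.30 ± 0.11 (-0.51 to -0.09) missed the threshold with an adjusted p of 0.0555. It passed in 8 of 16 other settings, with adjusted p from 0.000168 to 0.448. These were 7 of 8 changes of processing, with DESeq2 giving -0.31 and an adjusted p of 0.00114. Most fits with 1 library left out did not pass. Of all genes tested, 8.57% passed in this comparison, against 3 of the 4 members. With library totals alone the median of all genes moved from -0.01 to -0.13, and relative to it Irf8 was at -0.79, Batf3 at -2.20, Id2 at -0.31 and Nfil3 at 3.32.

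**Figure D2:**
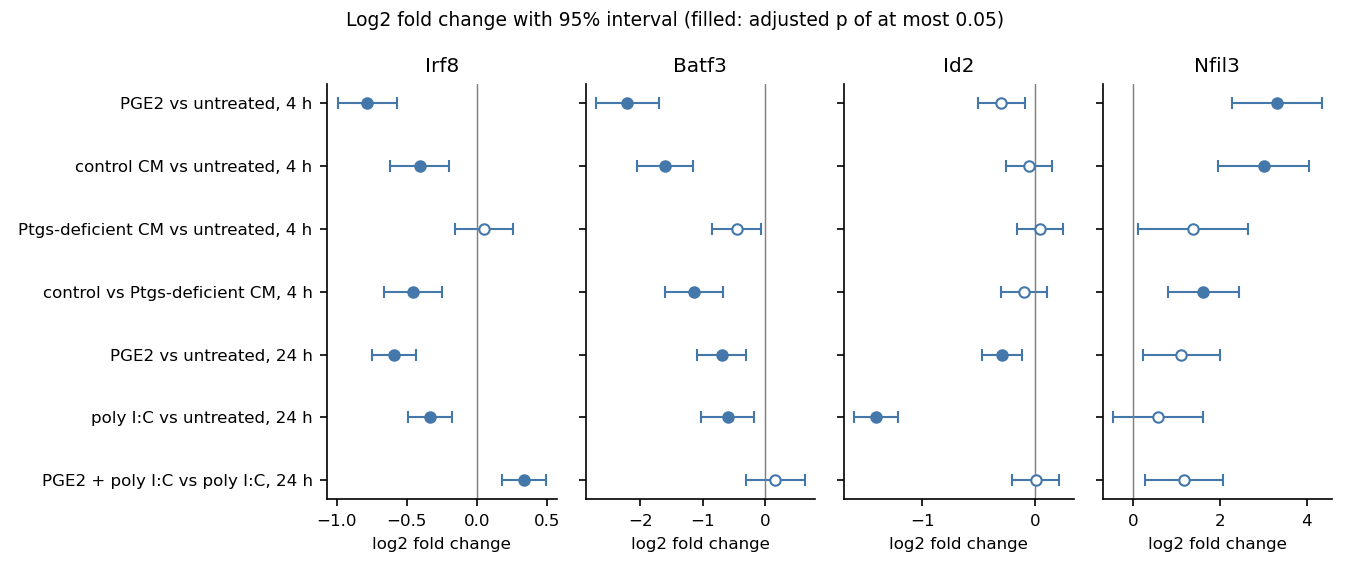
Log2 fold change of the 4 genes in 7 comparisons, with 95% intervals from edgeR and filled symbols for an adjusted p of at most 0.05. The changes with PGE2 at 4 h reach from -2.21 for Batf3 to 3.31 for Nfil3. Those of Id2 at 4 h run from -0.30 with PGE2 to 0.05 with cyclooxygenase-deficient CM, without a filled symbol.

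The other transcription factors known in dendritic cell development also moved in both directions at 4 h. Of 40 listed, 26 were tested, 6 rose and 2 fell, beside 8.57% of all genes passing. The median log2 fold change was 0.08 against -0.01 for all genes. Relb, the NF-kB subunit of the non-canonical pathway, rose by 1.55 ± 0.34 (adjusted p = 0.00024), and Etv3, an ETS-family repressor, by 1.41 ± 0.34 (adjusted p = 0.0011). Bhlhe40, Junb, Runx3 and Id1, the last a relative of Id2 that also binds E proteins, rose by 1.21, 0.82, 0.77 and 0.73. Batf, the relative of Batf3 that can take its place, was at 0 to 11.6 CPM with PGE2 and at 21.0 to 31.7 CPM untreated, from 5 and 26 counts (log2 fold change -2.17 ± 0.66, adjusted p = 0.018). Spi1, which encodes PU.1, fell by 0.38 (adjusted p = 0.037). Zeb2, the factor that NFIL3 holds back, and Irf4, the factor of type 2 dendritic cells, had 3 counts each in the untreated group and 2 and 4 with PGE2, too few for a test.

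Of 22 genes of cDC1 identity, 19 were tested, 10 fell and 2 rose, beside 8.57% of all genes passing. Their median was -0.74 against -0.01 for all genes. The fallen genes included Btla (-1.74), Ppt1 (-1.52), Naaa (-1.36) and Xcr1, the chemokine receptor that marks cDC1 (-1.14 ± 0.26, adjusted p = 0.0013), and Plet1 rose by 2.42. Targets of cyclic AMP and CREB rose in 7 of 10 tested, and none fell, with a median of 1.99. Crem, an early cyclic AMP response gene, rose by 4.89 ± 0.65 (adjusted p = 1.62e-06) from 7.58 ± 6.64 to 181 ± 38.5 CPM (SD, n = 4).

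The comparison of control CM with cyclooxygenase-deficient CM asked whether tumour-derived prostanoids act on the same genes. Irf8 was at 3451, 3190, 3711 and 3318 CPM in control CM and at 4855, 3652, 5525 and 4795 CPM in the deficient medium, so that replicate B of the latter overlapped the control CM. Its log2 fold change was -0.46 ± 0.11 (adjusted p = 0.00168). Batf3 was at 64.1, 118, 72.9 and 65.5 CPM against 191, 158, 121 and 233 CPM, without overlap. It was lower in control CM by -1.14 ± 0.23 on the log2 scale (adjusted p = 0.0002). Nfil3 was at 89.7, 95.3, 94.4 and 51.3 CPM in control CM and at 2.98, 66.3, 8.34 and 24.0 CPM in the deficient medium, with overlap only through replicate B. It was higher in control CM by 1.62 ± 0.41 (adjusted p = 0.00929). Id2 was at 2609.9, 3004, 2703 and 2871 CPM and at 2984, 2676, 3086 and 3271 CPM, with overlapping ranges and a change of -0.10 ± 0.10 (-0.30 to 0.10, adjusted p = 0.779). The share of all genes that passed was 3.95%, against 3 of the 4 members.

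Replicate B of the deficient medium was the highest library of its group for Nfil3 and the lowest for Irf8 and Id2. Without it, the difference was -0.56 for Irf8 (adjusted p = 0.000158), -1.19 for Batf3, -0.14 for Id2 and 2.77 for Nfil3 (adjusted p = 7.76e-07). The Irf8 difference missed the threshold without replicate C of that group, at an adjusted p of 0.0518. The Nfil3 call held in 13 of 16 other settings, and was lost without replicate A (1.21, adjusted p = 0.0651) or C (1.38, adjusted p = 0.0525) of that group and with only the groups compared in the fit (adjusted p = 0.103).

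Against untreated cells, control CM lowered Irf8 by 0.41 ± 0.11 (adjusted p = 0.0047, but 0.0702 without the filter on low counts) and Batf3 by 1.60 ± 0.23 (adjusted p = 8.39e-09). It raised Nfil3 by 3.003 ± 0.526 (adjusted p = 1.88e-05), while the change of Id2 was -0.05 (adjusted p = 0.857). In this comparison 7.56% of genes passed. With cyclooxygenase-deficient CM none of the 4 was called against untreated cells, where 0.0869% of genes passed. Irf8 differed by 0.05 and Id2 by 0.05. Batf3 was lower by -0.46 ± 0.20 (-0.85 to -0.06, adjusted p = 0.625) with ranges that did not overlap. Nfil3 was at 1.38 ± 0.63 (0.12 to 2.65, adjusted p = 0.724), and at 0.23 without replicate B. These comparisons share the untreated libraries.

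Set directly against PGE2, control CM gave no called difference in the members, with 0.122% of genes passing. Irf8 was higher in control CM in all 4 libraries than in any PGE2 library, by 0.37 ± 0.11 (adjusted p = 0.195). The call depended on the fit: the adjusted p was 0.0456 with library totals alone and 0.00122 with only these groups in the fit. Batf3 differed by 0.61 (adjusted p = 0.88), Id2 by 0.25 (adjusted p = 0.721) and Nfil3 by -0.31 (adjusted p = 0.973).

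Of the 26 other dendritic cell transcription factors, 3 were higher in control CM than in the deficient medium and none was lower, beside 3.95% of all genes passing. Their median was 0.19 against -0.01 for all genes. The 3 were Id1 (0.75), Bhlhe40 (0.73) and Runx3 (0.62), which also rose with PGE2. Of 19 cDC1 identity genes, 5 were lower and 1 higher, with a median of -0.57. Ppt1 (-1.33), Snx22 (-1.23) and Xcr1 (-0.80, adjusted p = 0.0274) were among the lower ones, and Plet1 was the higher one (1.69). Of 10 cyclic AMP and CREB targets, 6 were higher and 1 lower, with Crem at 2.18 ± 0.43 (adjusted p = 0.0016).

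The antagonist groups asked which receptors carry the PGE2 response, and each was set against PGE2 alone. With the EP2 and EP4 antagonists together, Irf8 was at 3937, 3806, 3788 and 3764 CPM, above all 4 PGE2 libraries and below all untreated ones. It was higher than with PGE2 alone by 0.53 ± 0.11 on the log2 scale (adjusted p = 6.81e-05). Batf3 was at 176, 138, 115 and 210.0 CPM, likewise between the other groups, with a difference of 1.61 ± 0.25 (adjusted p = 1.72e-07). Nfil3 was at 10.6, 18.0, 25.2 and 14.2 CPM, below every library with PGE2 alone, and fell by 2.58 ± 0.42 (adjusted p = 3.32e-06). Id2 was at 2826, 2808, 2894 and 2782 CPM, above every library with PGE2 alone, but its difference of 0.26 ± 0.10 missed the threshold (adjusted p = 0.0983). In this comparison 9.52% of genes passed, against 3 of the 4 members.

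Expressed as a share of the log2 change with PGE2, the pair of antagonists returned 68.3% for Irf8, 73.2% for Batf3, 86.7% for Id2 and 77.8% for Nfil3. Such shares, here and below, use the same PGE2 libraries in both terms and have no interval. Error in those libraries alone can therefore move them. The PGE2 change of Id2 was itself not called, so its shares are the least certain. Against untreated cells none of the 4 was called with the pair (0.799% of genes passed), with Irf8 at -0.25 ± 0.11 (adjusted p = 0.325), Batf3 at -0.59 ± 0.20 (adjusted p = 0.153), Id2 at -0.04 and Nfil3 at 0.74 (adjusted p = 0.752). The Irf8 and Batf3 libraries all lay below the untreated ones.

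No member passed the threshold with a single antagonist against PGE2 alone. With the EP2 antagonist, where 0.417% of genes passed, Irf8 was at 3177, 3285, 2867 and 3098 CPM, all above the PGE2 libraries, and its difference was 0.23 ± 0.11 (0.02 to 0.44, adjusted p = 0.473). Batf3 was at 120, 73.7, 85.6 and 108 CPM, with 1 library inside the PGE2 range (0.87 ± 0.28, 0.32 to 1.42, adjusted p = 0.18). Nfil3 was at 37.5, 29.5, 47.9 and 42.9 CPM, below all PGE2 libraries (-1.34 ± 0.37, -2.09 to -0.60, adjusted p = 0.103). The Nfil3 difference passed with only these groups in the fit (adjusted p = 0.000546) and without the filter on low counts (adjusted p = 0.0218). Shares of the PGE2 change returned were 29.6% for Irf8, 39.6% for Batf3, 60.4% for Id2 and 40.6% for Nfil3.

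With the EP4 antagonist Irf8 was at 2619, 2649, 2477 and 2475 CPM and Batf3 at 83.8, 41.9, 59.2 and 90.3 CPM, within or close to the PGE2 ranges. Irf8 differed by -0.04 (-0.26 to 0.18) and Batf3 by 0.28 (-0.37 to 0.92). Nfil3 spread from 21.0 to 106 CPM, and its difference was -0.56 (-1.31 to 0.18). Replicate A of this group had only 42666 counts in total. Its Nfil3 value, the lowest, rested on 1 count and its Batf3 value on 4 counts. Of all genes 0.0348% passed. The EP1 antagonist gave 2196 to 2431 CPM for Irf8, below every library with PGE2 alone, and 56.7 to 72.5 CPM for Batf3. The differences were -0.17 (adjusted p = 0.973) and 0.33. Nfil3 was at 23.2, 121, 145 and 109.9 CPM there, replicate A resting on 3 counts. In that comparison edgeR called 0 of 5754 genes (0%), with 276 at an unadjusted p under 0.05, and DESeq2 also called 0. With the EP3 antagonist, where 0.0695% of genes passed, Irf8 differed by -0.01 and Batf3 by 0.61 (adjusted p = 0.517). Replicate B of that group held the highest Irf8 (3544 CPM) and Batf3 (125 CPM) values, and without it the differences were -0.18 and 0.35. Nfil3 was at 70.4, 60.8, 105 and 87.6 CPM with the EP3 antagonist, overlapping PGE2 alone (-0.32). Id2 stayed between 1927 and 2862 CPM in the 16 libraries with a single antagonist, the lowest value being that of replicate A with the EP4 antagonist. With the EP1 antagonist, and with the EP2 antagonist, every Id2 library lay above those with PGE2 alone, without a call. The shares of its PGE2 change returned were 39.7% with the EP1, 33.5% with the EP3 and 22.0% with the EP4 antagonist. They rest on log2 differences of 0.12 ± 0.10, 0.10 ± 0.10 and 0.07 ± 0.11 (SE).

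The difference between the EP2 and EP4 antagonist groups was tested directly and gave no call in the members, with 0.0174% of genes passing. It was 0.27 for Irf8 (adjusted p = 0.738), 0.60 for Batf3 (adjusted p = 0.769) and -0.78 for Nfil3 (adjusted p = 0.832). The pair of antagonists differed from the EP4 antagonist alone in Irf8 (0.57, adjusted p = 4.18e-05), Batf3 (1.34, adjusted p = 5.1e-05) and Nfil3 (-2.01, adjusted p = 0.00218), where 5.47% of genes passed. The Nfil3 value was at an adjusted p of 0.109 without replicate C of the EP4 antagonist. Against the EP2 antagonist alone, where 2.14% of genes passed, the pair differed in Batf3 (0.74 ± 0.21, adjusted p = 0.0333), a call that held in 9 of 16 other settings. It was lost in DESeq2 (adjusted p = 0.0576), without the filter (0.0752), without EP2 antagonist replicate B, C or D (0.183, 0.112 and 0.0567) and without replicate A or D of the pair (0.102 and 0.221). Irf8 differed there by 0.30 (adjusted p = 0.118) and Nfil3 by -1.23 (adjusted p = 0.189).

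With the EP2 or the EP4 antagonist alone, Irf8 and Batf3 still differed from untreated cells, and Nfil3 did so less firmly with the EP2 antagonist. With the EP2 antagonist Irf8 was at -0.55 (adjusted p = 6.48e-05), Batf3 at -1.33 ± 0.21 (adjusted p = 1.06e-06) and Nfil3 at 1.97 ± 0.58 (adjusted p = 0.0293), where 4.81% of genes passed. The Nfil3 call with the EP2 antagonist held in 10 of 16 other settings. It was lost in DESeq2 (adjusted p = 0.0859), without untreated replicate C or D (0.186 and 0.198), and without EP2 antagonist replicate A, C or D (0.062, 0.0922 and 0.103). With the EP4 antagonist the values were -0.82 (adjusted p = 1.44e-09), -1.93 (adjusted p = 8.96e-10) and 2.75 ± 0.56 (adjusted p = 0.000291), where 6.99% passed. Id2 was not called in either, at -0.12 and -0.23.

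**Figure D3:**
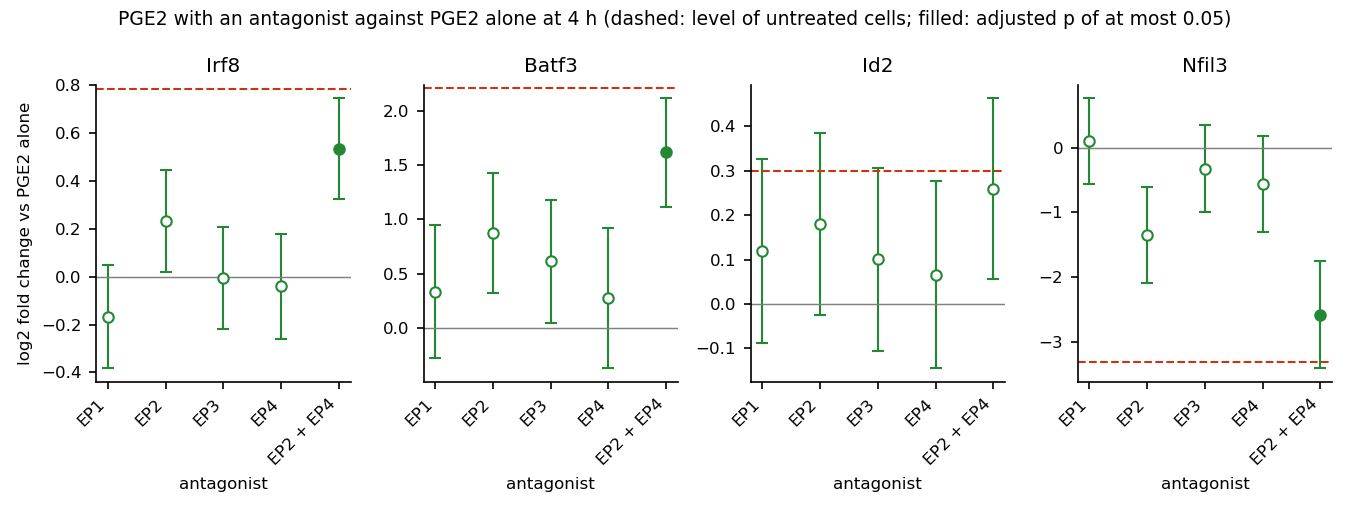
Log2 difference from PGE2 alone with each antagonist at 4 h, for the 4 genes, with 95% intervals and filled symbols for an adjusted p of at most 0.05; the dashed line is the untreated level. The EP2 and EP4 antagonists together give 0.53 for Irf8, 1.61 for Batf3 and -2.58 for Nfil3, and no single antagonist has a filled symbol.

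Of the 26 other transcription factors tested, 2 were higher and 6 lower with the pair of antagonists than with PGE2 alone, and 18 did not pass, beside 9.52% passing over all genes. Their median was -0.21 against 0.01 for all genes. Batf was higher by 2.25 (adjusted p = 0.0075) and Spi1 by 0.51. Etv3 (-1.36, adjusted p = 0.00046), Relb (-1.09, adjusted p = 0.0053), Junb, Runx3, Bhlhe40 and Id1 were lower. With the EP2 antagonist alone Batf was already higher by 2.53 (adjusted p = 0.021) and Runx3 lower by 0.55. Of the 19 cDC1 identity genes, 5 were higher with the pair, among them Ppt1 (1.34) and Naaa (0.80), and 3 were lower, Plet1 at -2.10. Of 10 cyclic AMP and CREB targets 7 were lower, Crem by -3.02 ± 0.45 (adjusted p = 1.3e-05), and none was higher.

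After 24 h with PGE2, Irf8, Batf3 and Id2 were lower than in untreated cells of the same time, where 7.97% of genes passed. Irf8 was at 3786, 3888, 3978 and 3892 CPM untreated and at 2491, 2531, 2596 and 2455 CPM with PGE2, far apart in all libraries (-0.59 ± 0.08, adjusted p = 5.93e-10). Id2 was at 2208, 2295, 2256 and 2291 CPM untreated and at 1833, 1866, 1762 and 1749 CPM with PGE2, also without overlap (-0.29 ± 0.09, adjusted p = 0.0207, but 0.0506 and 0.0541 without PGE2 replicate C or D and 0.077 without the filter). Batf3 was at 166, 188, 236 and 117 CPM against 145, 98.7, 89.9 and 85.7 CPM, ranges that overlapped (-0.70 ± 0.20, adjusted p = 0.0126). Its call was lost without untreated replicate C (-0.54, adjusted p = 0.145) and without PGE2 replicate B or C (adjusted p = 0.0572 and 0.0625). Nfil3 was at 36.5, 8.82, 8.85 and 6.87 CPM untreated and at 31.9, 34.8, 48.1 and 15.1 CPM with PGE2 (1.11 ± 0.45, 0.22 to 2.00, adjusted p = 0.122). Untreated replicate A held 13 of the 21 untreated counts, and without it the Nfil3 value was 2.00 with an adjusted p of 0.0118.

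Whether the response to PGE2 differed between the times was tested as the difference of the log2 fold changes, where 4.35% of genes passed. Batf3 responded less at 24 h, by 1.49 ± 0.32 (adjusted p = 0.00065). Nfil3 also responded less, by -2.21 ± 0.68 (adjusted p = 0.0373), but this call held in only 12 of 23 other settings. It was lost in DESeq2 (adjusted p = 0.0619), and the value moved most without untreated replicate A at 24 h (-1.33, adjusted p = 0.493). It was also lost without untreated replicate C or D at 4 h (0.0991 and 0.165), PGE2 replicate A or B at 4 h (0.054 and 0.0678) and PGE2 replicate B or D at 24 h (0.0541 and 0.0666). For Irf8 the difference was 0.18 (adjusted p = 0.537) and for Id2 0.00. Untreated cells themselves had less Id2 at 24 h than at 4 h, by -0.38 ± 0.09 (adjusted p = 0.00273, but 0.112 without the filter on low counts), where 4.33% of genes passed. Irf8 (-0.24, adjusted p = 0.0956), Batf3 (-0.46, adjusted p = 0.142) and Nfil3 (0.66, adjusted p = 0.662) did not pass. Culture time and handling of the 2 harvests cannot be told apart.

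Poly I:C changed most of the transcriptome, with 65.0% of genes passing against untreated cells at 24 h, and this sets how the members' changes can be read. Scaling factors were 0.611 to 0.634 in the 8 libraries with poly I:C and 1.01 to 1.24 in the other 44. With TMM scaling the median change of all genes was -0.10, and with library totals alone it was -0.87, so changes are also given relative to the median gene. Id2 fell from 2208 to 2295 CPM untreated to 1005, 912, 909.7 and 784 CPM with poly I:C, with no overlap (-1.41 ± 0.10, adjusted p = 1.49e-30), or -1.31 relative to the median gene under either scaling. Irf8 was at 2932, 3019, 3274 and 3764 CPM, below every untreated library (-0.34 ± 0.08, adjusted p = 0.000106), or -0.24 relative to the median gene under either scaling. Batf3 was at 131, 127, 126 and 112 CPM (-0.60 ± 0.21, adjusted p = 0.00988), or -0.50 relative to the median gene, and overlapped the lowest untreated library. Its adjusted p was 0.103 without untreated replicate C. Nfil3 was at 23.8, 28.9, 34.1 and 14.0 CPM (0.57, adjusted p = 0.341), and at 1.47 with an adjusted p of 0.0355 without untreated replicate A.

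The difference that PGE2 made in Irf8 had the opposite sign when poly I:C was present. With both agents Irf8 was at 4252, 4325, 3682 and 4132 CPM, higher than with poly I:C alone by 0.34 ± 0.08 (adjusted p = 0.00119), with ranges that overlapped in 1 library of each group. The test of the difference itself, the interaction of PGE2 and poly I:C, gave 0.93 ± 0.11 for Irf8 (0.70 to 1.15, adjusted p = 6.3e-11), the 4th smallest p of 5273 genes, where 3.28% passed. The interaction was 0.86 ± 0.31 for Batf3 (0.24 to 1.47, adjusted p = 0.118), 0.30 for Id2 (adjusted p = 0.279) and 0.06 for Nfil3 (adjusted p = 0.988). In the comparison of both agents with poly I:C alone, where 10.7% of genes passed, Batf3 was at 127, 134, 136 and 152 CPM (0.16, adjusted p = 0.782) and Id2 at 724, 867, 886 and 1129.5 CPM (0.01, adjusted p = 0.978). Nfil3 was at 66.3, 67.0, 34.1 and 57.5 CPM, with a difference of 1.17 ± 0.45 (adjusted p = 0.0801).

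Read the other way, adding poly I:C to PGE2 changed 64.8% of genes. Id2 fell by 1.11 (adjusted p = 1.17e-21). Irf8 was higher by 0.59 ± 0.08 (adjusted p = 4.52e-11) with TMM scaling but lower, at -0.19 (adjusted p = 0.0226), with library totals alone, and 0.70 or 0.69 above the median gene under the 2 scalings. Batf3 likewise went from 0.25 (adjusted p = 0.317) to -0.52 (adjusted p = 0.0294), and was 0.36 above the median gene under either scaling.

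**Figure D4:**
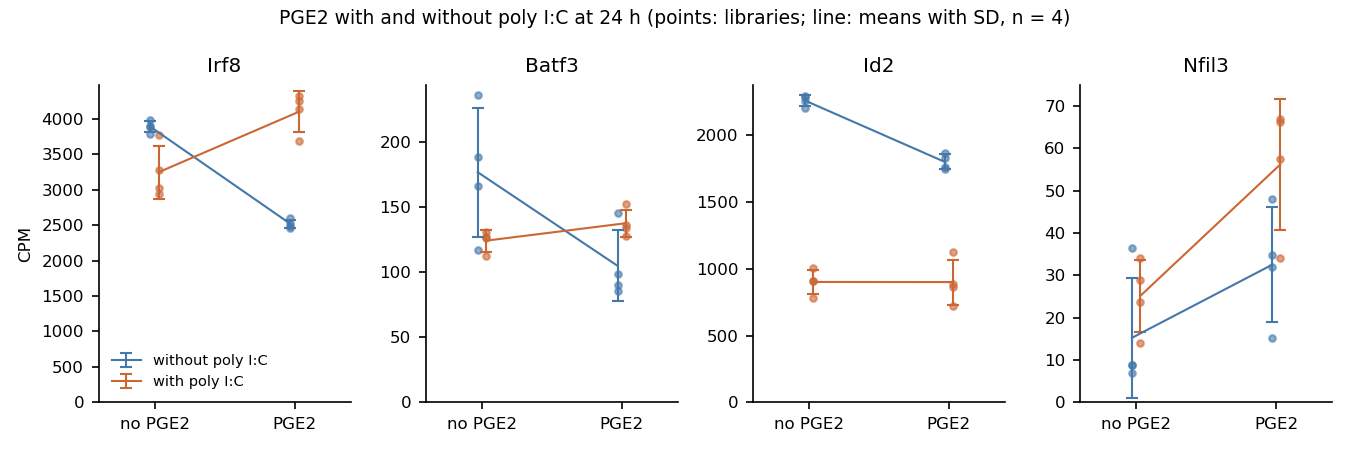
CPM of the 4 genes in the 16 libraries at 24 h, with and without PGE2 and poly I:C, with points for libraries and bars for the mean and SD of 4. Irf8 means fall from 3886 to 2518 CPM with PGE2 alone and rise from 3247 to 4098 CPM when PGE2 is added to poly I:C, while Id2 is at 903 CPM with poly I:C and at 902 CPM with both.

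Of 28 other dendritic cell transcription factors tested at 24 h, 7 rose and 2 fell with PGE2, beside 7.97% of all genes passing. Their median was 0.27 against 0.03 for all genes. Bhlhe40 rose by 1.82 (adjusted p = 2.4e-10) and Relb by 1.22 (adjusted p = 3.3e-06), and Id1 and Id3, relatives of Id2, fell by 0.96 and 0.56. Id1 had risen at 4 h, and its responses differed between the times by -1.70 (adjusted p = 7.1e-07). Batf, lower with PGE2 at 4 h, differed between the times by 3.07 (adjusted p = 0.0092). With poly I:C alone, on the TMM scale and beside 65.0% of all genes passing, 14 of 28 rose and 8 fell (median 1.03 against -0.10 for all genes). Nr4a3 (6.00), Relb (5.13) and Bhlhe40 (4.49) led, while Spi1 fell by 1.62. Spi1 also had an interaction in the direction of Irf8, at 1.02 ± 0.19 (adjusted p = 5.9e-05), whereas Bhlhe40 (-1.41, adjusted p = 9.8e-05) and Relb (-0.88, adjusted p = 0.014) had the opposite one. These were the 3 of 28 called, beside 3.28% of all genes passing. Spi1 was at 676 ± 52.1 CPM untreated, 734 ± 52.7 CPM with PGE2, 233 ± 55.1 CPM with poly I:C and 519 ± 104 CPM with both (SD, n = 4).

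Genes of cDC1 identity at 24 h fell with PGE2 in 6 of 19 and rose in 1 (median -0.46), beside 7.97% of all genes passing. Ppt1 was at -1.77, Xcr1 at -1.66 and Naaa at -1.47. With poly I:C, on the TMM scale and beside 65.0% of all genes passing, 13 fell and 2 rose (median -1.54 against -0.10 for all genes, which was -0.87 with library totals alone), among them the lectin receptor gene Clec9a (-1.97) and the integrin gene Itgae, which encodes the sorted CD103 (-2.16). Xcr1 was at -0.39 there (adjusted p = 0.0544). When PGE2 was added to poly I:C, Xcr1 was lower (-1.23, adjusted p = 1.75e-05) and Flt3, the receptor for FLT3L, was higher (1.74). The interaction was called for Flt3 (1.37, adjusted p = 0.00029) and Naaa (0.72, adjusted p = 0.043) and for no other of the 19, beside 3.28% of all genes. For Xcr1 it was 0.44 (adjusted p = 0.601). The summed cDC1 markers given above fell with PGE2, with poly I:C and again with both, so they did not follow Irf8 in the group with both agents. Their part in the members' changes was not tested.

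Across the 13 group means of log2 CPM, Pearson's r between Irf8 and Batf3 was 0.866. It was -0.900 between Batf3 and Nfil3 and -0.687 between Irf8 and Nfil3. Over both times together, Id2 gave -0.016, -0.075 and -0.030 against Irf8, Batf3 and Nfil3. Its lowest means were in the 4 groups at 24 h. At 4 h its order began like that of Irf8: cyclooxygenase-deficient CM, untreated, both antagonists, control CM and the EP2 antagonist. None of these Id2 steps exceeded the spread, and r within 4 h alone was not computed. The 13 groups share a culture protocol and 1 scaling, so the r values describe the groups and carry no test. Among 3171 other genes with a mean of at least 50 CPM, those most like Irf8 included Nav1 (r = 0.871) and Batf3 itself (0.866). Those most like Batf3 included Cd24a, a cDC1 surface marker (0.884), and Cap1, an actin regulator (0.876). Id2 was most like E2f2 (0.991), Kif23 (0.990) and Ccna2, the cyclin A2 gene (0.985), 3 genes of the cell cycle. Among 3172 genes, Nfil3 was most like Crem (0.948), the cytokine receptor gene Csf2rb (0.947) and Isy1 (0.943).

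The spread between libraries differed among the members. The biological coefficient of variation at 4 h was 10.7% for Irf8, 14.2% for Batf3, 9.59% for Id2 and 26.0% for Nfil3, against a median of 17.5% over all genes. At 24 h it was 8.24%, 12.2%, 8.56% and 20.6%, against 15.6%. Nfil3, with few counts in most groups, was the least precisely measured.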

How the data were processed

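RNA was sequenced in bulk from the 3' end in 52 libraries. Per the labels' protocols, the authors sequenced on a NextSeq 500 and counted UMIs by gene in the Drop-seq pipeline (GRCm38, Ensembl release 75), and the submitters' processing notes name DESeq2 1.14.1 and GRCm38.p6. An aligner or strand setting is not given in the sources used here. Reads of Irf8 and of the gene model overlapping it cannot be told apart. The deposited values are whole-number counts; 1 of 23136 lines held a text entry and was left out.

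The test was edgeR's quasi-likelihood F-test (edgeR 4.0.16 in R 4.3.3, with TMM scaling, filterByExpr by group and robust dispersions), with Benjamini-Hochberg adjustment over all genes and a threshold of 0.05, in 3 fits: 36 libraries at 4 h (5754 genes), 16 at 24 h (5273 genes), and the 16 untreated and PGE2 libraries of both times (5403 genes). Every adjusted p comes from edgeR unless DESeq2 (1.42.0) is named. Shares of genes passed count both directions. CPM levels used 1 TMM scaling over the 52 libraries. The members and the gene lists were chosen with earlier results of these data known, as were the tests. Named from each list and comparison were up to 3 called genes with the largest log2 fold change, with Crem and Xcr1 and the 3 genes most like each member, of which 1 is not reported here; other listed genes in the text were chosen after their values were seen.

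A count of 0 allows up to 3 counts, or 10.2 CPM at the median depth, for counting error only. Libraries of the same group varied more than counting alone would give (chi-square per degree of freedom 1.38 to 2.70 over 78 pairs). Promoters and motifs came from RefSeq, gene positions from the GRCm38 annotation given with the files. The statistics were tested on simulated data.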

Additional observations from a re-analysis of the deposited data

Results flagged for a closer look

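Single libraries far from the other 3 of their group were found in 5 of 52 gene and group combinations, and chance gives about 1 in 20. They were Batf3 in control CM, replicate B, high at 118 CPM; Id2 in untreated cells at 4 h, replicate A, low at 2616 CPM; Id2 with the EP1 antagonist, replicate C, high at 2862 CPM; Nfil3 in control CM, replicate D, low at 51.3 CPM; and Nfil3 in untreated cells at 24 h, replicate A, high at 36.5 CPM. Replicate A of the untreated cells at 4 h is also among the 2 libraries with the lowest totals.

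Differences between the groups' responses that passed their own test were found in 3 cases. The response of Irf8 to PGE2 was higher with poly I:C than without, by 0.93 on the log2 scale. The response of Batf3 to PGE2 was less negative at 24 h than at 4 h, by 1.49. The response of Nfil3 was smaller at 24 h than at 4 h, with a difference of -2.21, which was -1.33 with an adjusted p of 0.493 in edgeR without untreated replicate A at 24 h.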

How the results depend on the processing

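The members' tests were repeated under other settings (DESeq2 size factors or library totals alone as scaling, no filter, the replicate block, all 52 libraries or only the groups compared in the fit, no shallow libraries, DESeq2): 663 of 697 values kept their direction and side of the threshold, as did 769 of 800 values with 1 library left out. Reversed were Irf8 (-0.19) and Batf3 (-0.52) between PGE2 with poly I:C and PGE2, with library totals alone, where the median of all genes was -0.88.

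The Id2 change with PGE2 at 4 h passed with DESeq2 size factors (-0.31), library totals (-0.44), the replicate block (-0.29), all libraries (-0.30), only the 2 groups (-0.30), no shallow libraries (-0.33) and DESeq2 (-0.31). It ran from -0.34 to -0.27 with 1 library left out, where most fits did not pass, and it passed in 8 of all 16 settings. Id2 with both antagonists passed with library totals (0.35), only the groups compared (0.23) and DESeq2 (0.24). Id2 with PGE2 at 24 h did not pass without the filter (-0.34, adjusted p = 0.077, edgeR), and ran from -0.31 to -0.28 with 1 library left out. With 1 library left out, control CM against cyclooxygenase-deficient CM ran from -0.56 to -0.37 for Irf8 and from 1.21 to 2.77 for Nfil3, which was 1.62 with an adjusted p of 0.103 with only the groups compared; 141 to 306 genes passed. At 24 h, Batf3 ran from -0.91 to -0.54 with PGE2 and from -0.73 to -0.43 with poly I:C, and Nfil3 from 0.88 to 2.00 and from 0.37 to 1.47. Genes with an interaction numbered 173, 81 without the filter and 113 with all libraries. The time difference of Nfil3 did not pass without the filter (adjusted p = 0.103) or with all libraries (0.0879). The cause of these changes was not tested.

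Genes called, with the range over settings, were 5 (1 to 10) for cyclooxygenase-deficient CM against untreated, 7 (5 to 22) for control CM against PGE2, and, against PGE2, 24 (18 to 82) for the EP2, 4 (0 to 9) for the EP3 and 2 (0 to 2) for the EP4 antagonist. They were 46 (24 to 75) for both antagonists against untreated, 1 (0 to 9) for EP2 against EP4, 234 (151 to 243) for untreated cells between times and 235 (129 to 266) for the time difference. With library totals alone the share of higher genes among those called went from 60.9% to 41.7% with PGE2 at 4 h, from 61.7% to 49.8% between the media, from 44.2% to 59.7% with both antagonists and from 48.2% to 24.0% with poly I:C.

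The letters A to D were not treated as pairs: deviations of same-letter libraries correlated at over 0.1 in 3 of 144 pairs at 4 h and 0 of 24 at 24 h. Their mean correlation was 0.018 and 0.029, against -0.0058 and -0.0095 between letters. Best correlation with the own letter was found in 21 of 36 and 13 of 16 libraries, more than an even spread over the 4 letters would give. The data thus hold a weak pairing by letter, and the labels do not say whether the letters mark shared cultures. Under the replicate block the time difference of Nfil3 was -2.06 (adjusted p = 0.066, edgeR), and besides Id2 above no other member's call changed. With only the groups compared, Nfil3 was not tested in 7 comparisons for low counts.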
